A study of Mus musculus with 8 samples.

Results

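The Sprouty, Spred and ETS feedback genes of the ERK pathway were followed in calvarial osteoblasts treated with PTH or vehicle. The set holds 10 genes (Spry1, Spry2, Spry4, Spred1, Spred2, Spred3, Etv4, Etv5, Egr1 and Ier3) of 47706 in the count table. They were chosen by symbol with no measured value in the rule, but with earlier results of these data known. Each symbol had 1 row, and all 10 were among the 16736 genes that passed the filter on low counts. Poly(A) RNA was sequenced from primary cultures of bone-forming cells from the skullcap of newborn mice, 4 treated with PTH and 4 with vehicle for 24 hours. All 8 cultures had been differentiated for 7 days and then kept in low serum before treatment. The sample labels name the medium adipogenic, whereas the study's text describes osteoblast differentiation, and they call every culture Con without giving a genotype, strain or sex. Neither source says whether the 4 samples of a treatment came from separate animals or preparations, so p-values measure the spread between these samples, which may be technical.

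ERK is the last kinase of a relay that runs from growth factor receptors through adaptors and Ras to a chain of kinases. The pathway limits itself: active ERK raises transcripts whose proteins act back on it, among them the Sprouty and Spred proteins, which sit at the membrane and dampen signaling close to Ras. Etv4 and Etv5 are ETS transcription factors that serve as classic readouts of FGF and ERK activity, Egr1 is a zinc finger factor induced within minutes of ERK activation, and Ier3 is a short immediate early gene whose protein binds ERK. PTH acts on osteoblasts through PTH1R, a receptor coupled mainly to cAMP and protein kinase A, so the comparison shows how the transcripts of an ERK loop stood a day after a cAMP-raising hormone.

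Total counts lay between 33605610 and 56090654 per sample. The label check gave Tnfsf11, the RANKL gene and a textbook PTH target, at 43 to 89 counts in vehicle and 3898 to 8068 in PTH samples, while Pth1r fell by 0.70 on the log2 scale (SE 0.118, adjusted p 0.000443). Osteoblast markers had a median between 219 and 384 CPM (counts scaled to library size after TMM normalization) in the 8 samples and adipocyte markers a median between 2.71 and 6.002 CPM. The marker counts that follow stand beside 23.3% of all tested genes called higher and 22.5% called lower. Among the osteoblast markers 2 of 9 fell (Runx2 and Sp7, both transcription factors of the lineage), with none higher. That is 22.2%, near the share of all tested genes. Of 6 tested adipocyte markers Pparg fell. The summed level of 10 macrophage markers was 1041 to 1688 CPM in vehicle and 1632 to 2113 CPM in PTH samples, with 3 of 10 higher (Lyz2, Tyrobp and Cd14) and none near 0. Of 4 tested chondrocyte markers 2 were higher (Col2a1 and Acan), with a summed level over the 5 listed of 316 to 331 CPM in vehicle and 369 to 485 CPM in PTH samples. The part of these cells in the results that follow was not tested, and in bulk RNA fewer cells of a type and less RNA per cell cannot be told apart.

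PTH moved the feedback genes in both directions. Spry2, Spry4, Spred2, Egr1 and Ier3 rose, Spry1, Spred1 and Etv5 fell, and Spred3 and Etv4 did not pass the test. These 8 of 10 calls, at an adjusted p under 0.05 in edgeR's quasi-likelihood test, stand against 45.8% of all tested genes, with 5 higher against 23.3% and 3 lower against 22.5%. The CPM values of the same 8 genes did not overlap between treatments, as was so for 43.0% of all tested genes. Most of the changes were modest: 2 of the 10, Ier3 and Spry2, were called with an absolute log2 fold change of at least 1, a size reached by 11.2% of all tested genes. The median log2 fold change of the 10 genes was 0.31 beside −0.00081 over all tested genes, and the median absolute change was 0.62 beside 0.35.

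**Figure D1:**
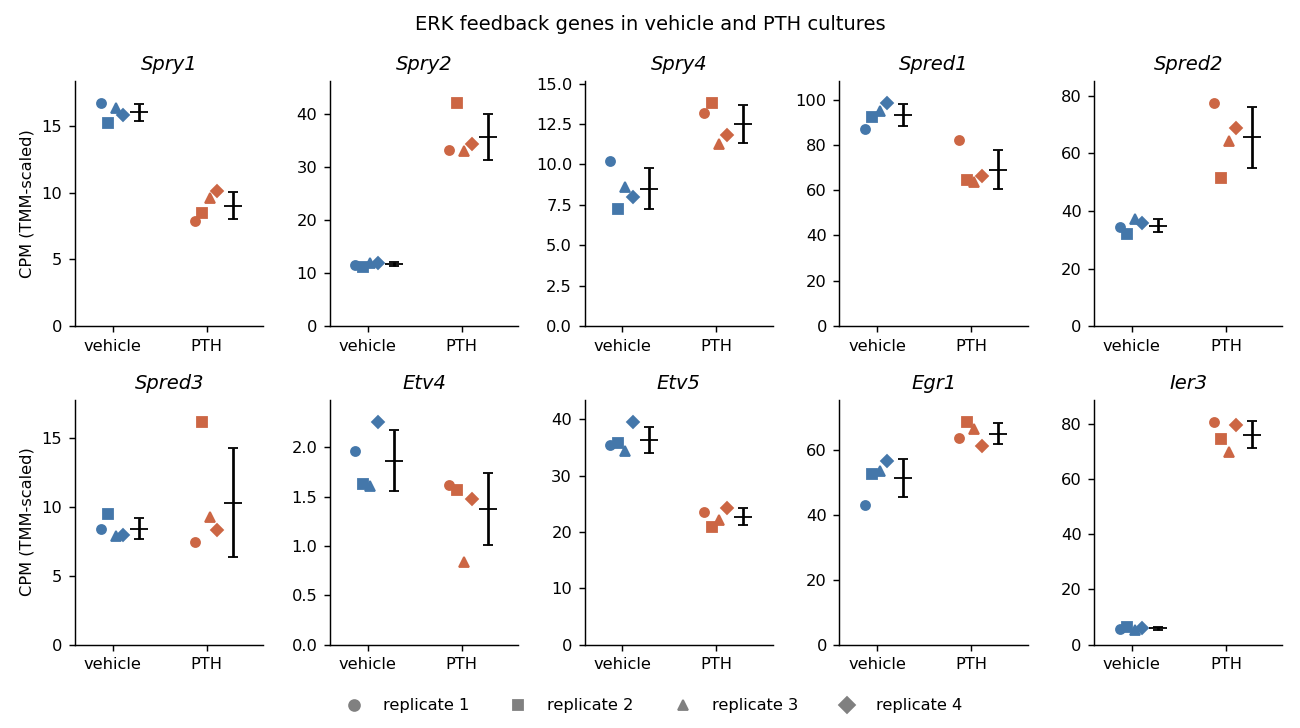
CPM on TMM-scaled library sizes (linear axis from 0) of the 10 feedback genes in each of 4 vehicle (blue) and 4 PTH (orange) samples, with the mean and SD in black and a symbol for each replicate number. Ier3 shows the widest gap, from 5.38 to 6.52 CPM in vehicle to 69.8 to 80.9 CPM in PTH samples, while the samples of Spred3 and Etv4 overlap.

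The Sprouty genes parted from each other. Spry1 and Spry2 encode closely related inhibitors that are phosphorylated downstream of growth factor receptors and interfere with signaling through Ras. Spry2 (chr14:105891947-105896819 of GRCm38, minus strand, 2 exons) was measured at 11.6, 11.2, 11.9 and 12.0 CPM in the vehicle samples and at 33.2, 42.1, 33.1 and 34.4 CPM in the PTH samples. Every PTH sample lay well above every vehicle sample, and PTH replicate 2 stood above the other three. The mean went from 11.7 ± 0.361 to 35.7 ± 4.29 CPM (SD, n = 4 each), and Spry2 rose by a log2 fold change of 1.61 (SE 0.0915, edgeR adjusted p 3.86e-08), about 3.06-fold by mean CPM.

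Spry1 (chr3:37639947-37644598, plus strand, 2 exons in its longest transcript) went the other way. Its values were 16.7, 15.3, 16.4 and 15.8 CPM in vehicle and 7.90, 8.49, 9.63 and 10.1 CPM in PTH samples, so that the highest PTH sample was still below the lowest vehicle sample. Spry1 fell by 0.83 on the log2 scale (SE 0.0994, edgeR adjusted p 3.05e-05), to 0.563 of the vehicle mean. A predicted gene on the opposite strand, Gm42922, overlaps Spry1 and held at most 21 counts in any sample, against at least 282 for Spry1.

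Spry4, a further member of the family, was measured at 10.2, 7.26, 8.57 and 7.98 CPM in vehicle and 13.2, 13.8, 11.3 and 11.8 CPM in PTH samples. The groups were close but did not overlap, and Spry4 rose by 0.56 on the log2 scale (SE 0.121, edgeR adjusted p 0.00259).

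The start regions of Spry1 and Spry2 are shown because the paralogs were called in opposite directions, together with that of Ier3, which changed most, and a stretch of Spred2 that held a match. They are RefSeq promoters of GRCm38.p6 on the coding strand. Those of Spry1 and Spry2 end at the base before the RefSeq start, and that of Ier3 is cut to 221 bases, ending before the start that GENCODE annotates, upstream of the RefSeq start. The stretches are chr3:37639697-37639946 (plus strand) for Spry1, chr14:105896820-105897069 (minus strand) for Spry2 and chr17:35821463-35821683 (plus strand) for Ier3. Capitals mark the letters that matched a promoter box or, in Spred2, a CRE half-site, on either strand, and the letters searched are given with the share of promoters that hold them.
Spry1: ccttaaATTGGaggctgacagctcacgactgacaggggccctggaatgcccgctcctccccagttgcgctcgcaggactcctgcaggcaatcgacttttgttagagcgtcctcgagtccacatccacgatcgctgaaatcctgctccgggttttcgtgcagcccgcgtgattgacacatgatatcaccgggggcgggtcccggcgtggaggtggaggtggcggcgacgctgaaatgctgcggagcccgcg
Spry2: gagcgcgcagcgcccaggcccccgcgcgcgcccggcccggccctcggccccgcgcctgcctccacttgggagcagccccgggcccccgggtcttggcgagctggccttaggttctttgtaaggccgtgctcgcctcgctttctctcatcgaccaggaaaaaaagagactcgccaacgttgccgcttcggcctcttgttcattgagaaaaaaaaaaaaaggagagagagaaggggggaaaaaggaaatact
Ier3: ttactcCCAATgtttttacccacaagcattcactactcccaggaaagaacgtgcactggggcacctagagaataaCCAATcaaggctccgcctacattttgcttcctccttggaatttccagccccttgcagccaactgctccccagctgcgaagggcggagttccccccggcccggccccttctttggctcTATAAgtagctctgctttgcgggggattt
Spred2: ccgctgggaagaCGTCAtcgcttccgccct

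The sequences were searched on both strands for letters bound by factors of the cAMP, ERK and basal machinery. A full CRE (TGACGTCA), the site of CREB, was found in the 250 bases before the start of 1.55% of 32851 promoters, and in none of the 7 feedback genes with an entry searched here. A CRE half-site (TGACG), which every full CRE also holds, was found in 17.8% of promoters, and among these genes in Spred2, as CGTCA from 51 to 47 bases before the RefSeq start. That stretch of Spred2, chr11:19924379-19924408 on the plus strand, lies inside the gene as GENCODE draws it, which begins at base 19924375. An AP-1 site (TGANTCA) was found in 6.75%, an ETS site (CCGGAA) in 12.0% and an EGR site (GCGTGGGCG or GCGGGGGCG) in 3.06% of promoters. A CArG box, the site of serum response factor, was found in 1.47%. No AP-1, ETS or EGR site of these letters and no CArG box was found in the 7 genes. The shorter ETS core GGAA was not searched. A site of the repressor CIC (TGAATGAA or TGAATGGA) was found in 2.07% of promoters and in Spred3, from 10 to 3 bases before the RefSeq start. The Spred3 window, chr7:29168648-29168897 on the minus strand, also lies inside the gene as GENCODE draws it, which begins at base 29170411. A TATA box (TATAA) was found in 22.8% of promoters and, among these genes, in Ier3, from 58 to 54 bases before the RefSeq start. A CCAAT box was found in 33.8% of promoters and in Spry1, Etv5 and Ier3. The first Etv5 window lies partly, and the second wholly, inside the gene as GENCODE draws it. The promoters of the 7 genes had between 54.4% and 71.2% GC, against a median of 52.4% over all promoters. A match is a description of letters in this window and no more.

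The Spred genes showed the same kind of split. Spred proteins share the Sprouty domain and bring neurofibromin, a Ras-inactivating protein, to the membrane. Spred2 (chr11:19924375-20024026, plus strand) was measured at 34.4, 32.2, 37.3 and 35.8 CPM in vehicle and 77.4, 51.6, 64.4 and 68.7 CPM in PTH samples. All PTH samples were above all vehicle samples, with replicate 2 the lowest of the PTH group. Spred2 rose by 0.91 on the log2 scale (SE 0.108, edgeR adjusted p 2.84e-05), from a mean of 34.9 ± 2.18 to 65.6 ± 10.8 CPM (SD, n = 4 each).

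Spred1 (chr2:117121374-117182279, plus strand), the family member mutated in the RASopathy Legius syndrome, stood at 87.0, 92.1, 94.8 and 98.3 CPM in vehicle and at 82.1, 64.4, 63.5 and 66.4 CPM in PTH samples. PTH replicate 1 came close to the lowest vehicle sample, and the other three PTH samples lay together well below it. Spred1 fell by 0.43 on the log2 scale (SE 0.0859, edgeR adjusted p 0.00148). Part of its transcript, 169 bases, is similar to Vps35, a gene with its own row of 4418 to 7600 counts, so that reads of that stretch are uncertain.

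Spred3 (chr7:29158829-29170411, minus strand), a form with lower inhibitory activity than its relatives, was measured at 8.39, 9.46, 7.84 and 7.94 CPM in vehicle and 7.45, 16.2, 9.24 and 8.34 CPM in PTH samples. The groups overlapped, and 1 sample, PTH replicate 2, lay far above the rest. The log2 difference was 0.29 (SE 0.209, edgeR adjusted p 0.289) and became −0.0027 without that sample. Ggn overlaps Spred3 on the opposite strand with 58 to 171 counts, and the strand setting of the authors' counting is not given in the sources used here.

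Of the ETS pair, Etv5 carried nearly all of the signal. Etv5 (chr16:22381309-22439719, minus strand) stood at 35.5, 35.8, 34.4 and 39.6 CPM in vehicle and at 23.6, 20.9, 22.1 and 24.3 CPM in PTH samples. The groups were far apart for their spread, and Etv5 fell by 0.68 on the log2 scale (SE 0.0760, edgeR adjusted p 1.78e-05), to 0.626 of the vehicle mean. Its transcript is 98.6% identical over 1700 bases to that of Gm4798, which has no row under that symbol in the table used here, so some of its reads may be shared. Etv4 (chr11:101769742-101785371, minus strand), its close relative, held between 32 and 112 counts per sample. It was measured at 1.96, 1.63, 1.61 and 2.26 CPM in vehicle and 1.62, 1.56, 0.835 and 1.47 CPM in PTH samples. The highest PTH sample lay just above the lowest vehicle sample, and the log2 difference of −0.44 (SE 0.265, edgeR adjusted p 0.200) did not pass the test. It was −0.27 without PTH replicate 3, the lowest sample.

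The immediate early genes moved by very different amounts. Ier3 (chr17:35821684-35822923, plus strand, 2 exons), which also takes part in stress and survival responses, stood at 5.64, 6.52, 5.38 and 6.17 CPM in vehicle and at 80.9, 74.7, 69.8 and 79.7 CPM in PTH samples. The 4 PTH samples were tightly grouped, more than 10 times above the vehicle samples. Ier3 rose by 3.69 on the log2 scale (SE 0.0874, edgeR adjusted p 1.66e-11), a mean CPM ratio of 12.9, which placed it at rank 164 among the 3907 genes called higher.

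Egr1 was measured at 43.2, 52.6, 53.7 and 56.6 CPM in vehicle and 64.0, 68.9, 66.5 and 61.4 CPM in PTH samples. The groups were separate by a small gap. Egr1 rose by 0.34 on the log2 scale (SE 0.0842, edgeR adjusted p 0.00584), the smallest of the 8 called changes. When the libraries were scaled by total counts without TMM, its log2 difference was 0.21 with an adjusted p of 0.0731, so that this call rests on the scaling. That scaling moved the median of all tested genes to −0.13, and relative to it Egr1 stood at 0.34.

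**Figure D2:**
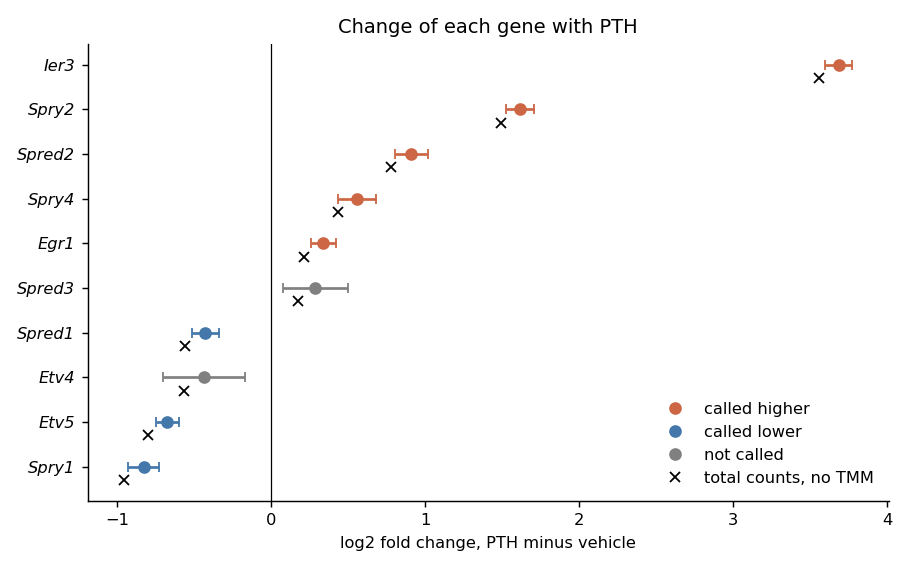
Log2 fold change of each gene, PTH minus vehicle, with its standard error over 4 and 4 samples, in orange where called higher, blue where called lower and grey where not called; crosses give the change when libraries are scaled by total counts without TMM. The changes run from −0.83 for Spry1 to 3.69 for Ier3, and the crosses lie to the left of the points without crossing 0.

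The ratio of related genes within a sample was compared for 7 pairs, as a measure that does not depend on how libraries are scaled. Ratios are log2 values of length-scaled counts. Where 1 gene of a pair was above and the other below its vehicle samples without overlap, the ratio had to separate as well, so Spry2 to Spry1, Spry4 to Spry1 and Spred2 to Spred1 are given as descriptions, with no test. Spry2 to Spry1 was −0.053, 0.029, 0.014 and 0.076 in the vehicle samples and 2.55, 2.79, 2.26 and 2.24 in the PTH samples. Per length the pair was thus at near parity in vehicle and Spry2 stood about 5.49 to 1 over Spry1 with PTH, a difference of 2.44 (SE 0.133). Spred2 to Spred1 was −0.78, −0.96, −0.79 and −0.90 in vehicle and 0.47, 0.24, 0.58 and 0.60 in PTH samples, so that Spred1 was the more abundant of the pair in every vehicle sample and Spred2 in every PTH sample. Spry4 to Spry1 stood 1.40 higher with PTH (SE 0.162). The other 4 pairs were compared by an exact two-sided permutation test, which with 70 ways to divide the samples cannot go below 0.0286. Spry2 to Spry4, both of which had risen, differed by 1.04 (SE 0.117) without overlap. Its exact p was 0.0286, the lowest this test can give. An adjusted p is not given, because the adjustment over the 7 pairs counted those that had to separate. The pair is therefore not called different. Spred3 to Spred1 (exact p 0.0857), Spred2 to Spred3 (exact p 0.143) and Etv5 to Etv4 (exact p 0.371) overlapped between treatments, and their differences were 0.66, 0.67 and −0.21. Without PTH replicate 2 these became 0.39, 1.02 and −0.090, and Etv5 to Etv4 was −0.13 without PTH replicate 1 and −0.42 without PTH replicate 3.

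**Figure D3:**
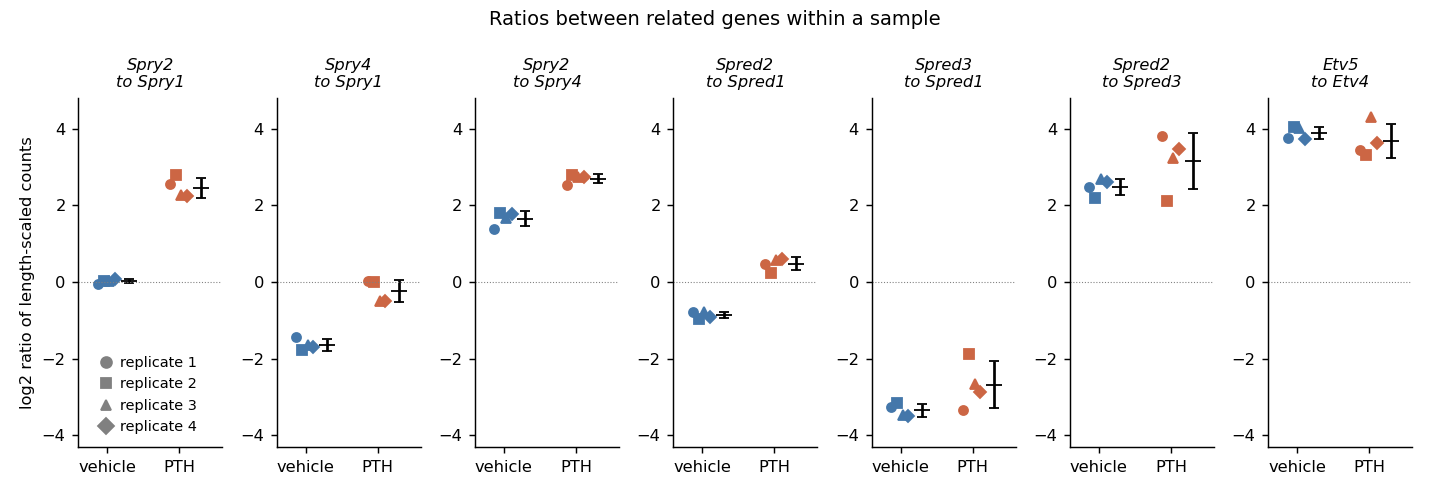
Log2 ratio of length-scaled counts for 7 pairs of related genes in each of 4 vehicle (blue) and 4 PTH (orange) samples, with mean and SD in black and a symbol for each replicate number. The dotted line marks equal levels: Spred2 to Spred1 lies below it in all vehicle samples and above it in all PTH samples, and Spry2 to Spry1 moves from near it to between 2.24 and 2.79.

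Expressed as shares of a family per length, Spry1 made up 42.8% ± 0.393 of the Spry1, Spry2 and Spry4 transcripts in vehicle and 13.7% ± 2.10 with PTH (SD, n = 4 each). Spry2 held 43.3% ± 1.49 in vehicle and 74.7% ± 1.95 with PTH, and Spry4 held 13.8% ± 1.49 and 11.5% ± 0.939. The Sprouty pool was thus divided between Spry1 and Spry2 in vehicle and was mostly Spry2 with PTH. Among the Spred transcripts Spred1 held 60.6% ± 1.16 in vehicle and 39.1% ± 1.65 with PTH, Spred2 held 33.4% ± 1.45 and 54.3% ± 4.23, and Spred3 held 5.99% ± 0.714 and 6.58% ± 3.17. Etv5 made up 93.7% ± 0.683 of the Etv4 and Etv5 pool in vehicle and 92.6% ± 1.87 with PTH, with overlapping samples. These shares are descriptions of the same counts and were not tested apart from the ratios.

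The order of the levels was compared within each treatment as TPM (counts per length, scaled to the same sum in every sample), since CPM favors long transcripts. In vehicle the order was Spred1 at 46.9 ± 3.12 TPM, Egr1 at 39.3 ± 5.03, Etv5 at 30.2 ± 2.25, Spred2 at 25.8 ± 1.61, Spry2 at 19.1 ± 0.688, Spry1 at 18.9 ± 0.460, Ier3 at 17.9 ± 1.81, Spry4 at 6.09 ± 0.779, Spred3 at 4.62 ± 0.441 and Etv4 at 2.05 ± 0.347 TPM (SD, n = 4 each). Neighbors overlapped between Spred1 and Egr1, between Egr1 and Etv5, and among Spry2, Spry1 and Ier3, and the other steps were separate. With PTH the order was Ier3 at 194.9 ± 19.4 TPM, Spry2 at 49.3 ± 5.33, Egr1 at 41.9 ± 1.15, Spred2 at 41.1 ± 7.84, Spred1 at 29.4 ± 4.53, Etv5 at 15.995 ± 1.57, Spry1 at 8.97 ± 1.05, Spry4 at 7.59 ± 0.765, Spred3 at 4.75 ± 1.72 and Etv4 at 1.28 ± 0.361 TPM. Egr1, Spred2 and Spred1 overlapped along this order, as did Spry1, Spry4 and Spred3. Ier3 thus went from the seventh place to the first, Spry2 from the fifth to the second, and Etv4 was last in both. Separation between treatments differed from that in CPM for some genes. Spry4 overlapped in TPM (5.28 to 7.14 in vehicle, 6.60 to 8.24 with PTH), as did Egr1 (32.1 to 43.8 and 40.6 to 43.2). Etv4, which overlapped in CPM, did not in TPM (1.76 to 2.52 and 0.749 to 1.55).

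**Figure D4:**
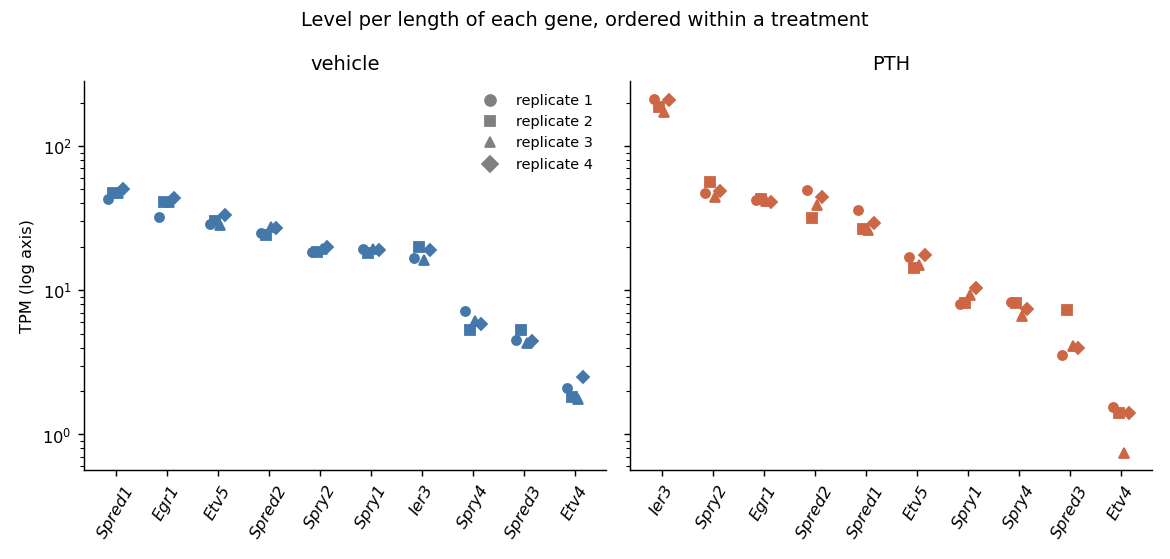
TPM (log axis) of the 10 genes in the 4 samples of each treatment, ordered from the highest to the lowest mean within vehicle (left) and PTH (right), with a symbol for each replicate number. Spred1 leads in vehicle at 42.7 to 50.2 TPM and Ier3 leads with PTH at 172 to 213 TPM, while Etv4 closes both orders.

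The rest of the pathway was read from 8 lists of genes, of which 130 distinct genes were tested, 58 higher and 28 lower with PTH, beside the 23.3% and 22.5% of all tested genes. These lists too were chosen with earlier results of these data known. Among receptor tyrosine kinases 7 of 18 rose and 4 fell. Ret, the receptor of the GDNF family, rose by 3.16 on the log2 scale (SE 0.173, edgeR adjusted p 2.79e-08), from 40 to 60 counts in vehicle to 304 to 576 with PTH, and Egfr, the EGF receptor, fell by 1.54 (SE 0.0726, edgeR adjusted p 7.64e-09), from 179 ± 11.3 to 61.5 ± 4.20 CPM. The list as a whole had a median log2 fold change of 0.19. Of 15 adaptors and exchange factors between receptors and Ras, 3 rose and 3 fell, at a median of 0.052. The adaptor Shc2 rose by 1.59 on the log2 scale and Rasgrp1, which loads Ras with GTP, fell by 1.36. Of 19 Ras proteins and core kinases, 7 rose and 3 fell, at a median of 0.10. The Ras relative Rras2 rose by 1.39 on the log2 scale, and its own relative Rras fell by 0.39. The count of lower genes in this list was 6 with total counts and no TMM and 5 without PTH replicate 1, and that of the adaptors was 5 with total counts.

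Other brakes on the pathway also went both ways, as did all tested genes, 23.3% higher and 22.5% lower. Of 17 tested, 6 rose and 4 fell, at a median of 0.036. Errfi1, which encodes the EGF receptor inhibitor MIG6, rose by 3.04 on the log2 scale (SE 0.0844, edgeR adjusted p 6.20e-11), and Il17rd, which encodes the FGF pathway inhibitor SEF, fell by 2.15 (SE 0.110, edgeR adjusted p 1.51e-08). Spry3, the remaining Sprouty gene, was low, at 20 to 50 counts in vehicle and 98 to 170 with PTH, and rose by 2.17 on the log2 scale. It is named because it completes the family, after its values were seen. Of the 10 dual specificity phosphatases of MAP kinases, 6 rose and 2 fell, with a median log2 fold change of 0.99. Dusp2 rose by 3.77 on the log2 scale from only 4 to 10 counts in vehicle, and Dusp7, which encodes an ERK phosphatase of the cytoplasm, fell by 1.23. The second phosphatase that fell, Dusp8, was lost without vehicle replicate 1 or 4, without PTH replicate 1, 2 or 4, with the replicate number as a block and with thinned counts, each of which left 1 lower gene.

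Of 22 transcripts commonly induced by ERK, 15 rose and 4 fell, with a median log2 fold change of 1.32. The counts here stand beside 23.3% of all tested genes higher and 22.5% lower. Several of them, Fos and Junb among them, are also textbook targets of cAMP signaling. Maff, a small MAF factor, rose by 4.73 on the log2 scale (SE 0.253, edgeR adjusted p 2.30e-08), and Arc, best known from neurons, fell by 2.28 (SE 0.250, edgeR adjusted p 1.49e-05). Of 18 tested ETS factors other than Etv4 and Etv5, 8 rose and 5 fell, at a median of 0.14. Etv1, the third factor of the Etv4 and Etv5 subfamily, fell by 0.83 on the log2 scale (SE 0.137, edgeR adjusted p 0.000373), from 6.16 ± 0.671 to 3.45 ± 0.209 CPM, and is counted in both of these lists. Spib, a factor of lymphoid cells, rose by 3.94 from 0 to 6 counts in vehicle, and by 4.81 without vehicle replicate 1. The macrophage factor Spi1 was also among the ETS genes that rose, and is named after its values were seen. The macrophage marker sums given above overlapped between treatments. The part of macrophages in the ETS changes was not tested.

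Of 13 tested repressors, degraders and partners of the feedback proteins, 6 rose and 4 fell, at a median of 0.12. Among all tested genes 23.3% were higher and 22.5% lower. Mknk2, a kinase activated by ERK, rose by 1.02 on the log2 scale (SE 0.0670, edgeR adjusted p 1.41e-07), and Det1, an adaptor of the ubiquitin ligase that degrades ETV proteins, fell by 1.33 (SE 0.113, edgeR adjusted p 1.46e-06). Cic, the repressor of Etv4 and Etv5 whose activity ERK relieves, was among those that fell, and is named after its values were seen. Its log2 fold change was −0.43 (SE 0.0686, edgeR adjusted p 0.000321).

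**Figure D5:**
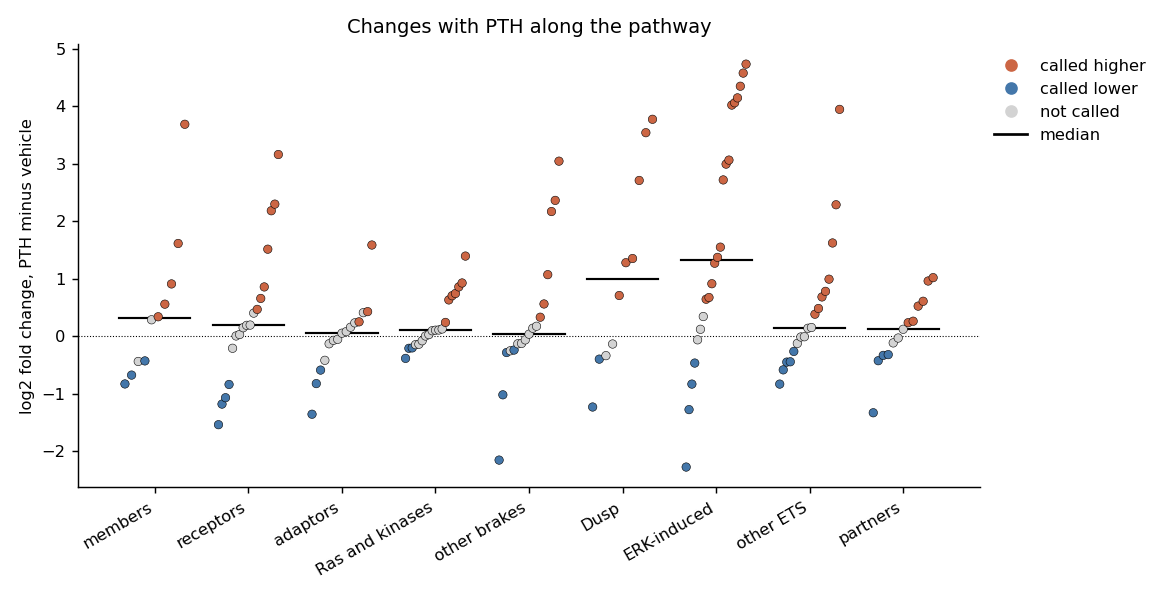
Log2 fold change, PTH minus vehicle, of each tested gene in the feedback set (members) and in 8 lists along the pathway, as points colored by call, with the median of each list as a line. The medians of 7 groups lie between 0.036 and 0.31, and those of the Dusp phosphatases and of ERK-induced transcripts lie at 0.99 and 1.32.

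The genes whose profile over the 8 samples was most like each feedback gene were picked by Pearson correlation of log2 CPM, as a description over 8 samples that fall into the same treatment groups. Spry2 was most like Dgat1 (r 0.998) and Zfp9 (r 0.998), and Ier3 most like Rabgef1 (r 0.999) and Pop4 (r 0.999). Etv5 was most like Tnfrsf11b (r 0.998), the osteoprotegerin gene, and Rbm19 (r 0.996). Spry1 was most like Zyx and Senp8 (both r 0.994), Spred1 like Cyfip1 (r 0.991) and Clint1 (r 0.988), and Spred2 like Peg13 (r 0.995) and Tjp1 (r 0.994). For the other four genes the most similar profiles were Batf (r 0.988) and Palm2 (r 0.978) for Spry4, Irx2 (r 0.979) and Trpc1 (r 0.974) for Egr1, Srpk1 (r 0.969) and Cdk15 (r 0.966) for Spred3, and Polr1b (r 0.969) and Eif4enif1 (r 0.960) for Etv4.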

How the data were processed

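RNA-sequencing data of 4 PTH and 4 vehicle samples were taken from 1 table of the whole series, with groups from the sample titles. The authors aligned reads to GRCm38 (mm10) with HISAT2, assembled transcripts with StringTie and deposited estimated counts, made from transcript coverage as whole numbers and not normalized. Read length setting, annotation version and strand setting are not given in the sources used here. 2 rows without a symbol held 0.0028% of the counts and were not taken out before the filter and tests.

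Counts were tested as deposited with edgeR 4.0.16 in R 4.3.3. Settings were TMM, the quasi-likelihood F-test, filterByExpr with a minimum count of 10 and total of 15, and Benjamini-Hochberg over 16736 genes. Genes with an adjusted p under 0.05 were called. DESeq2 1.42.0, the authors' tool, was an alternative. Both tools were also run on simulated counts with a small share of genes changed, equally up and down. That setting could not test the choice of scaling. CPM used TMM-scaled libraries. TPM used merged exon lengths of GENCODE M21. Ratios added 0.5 to each count and were tested in SciPy 1.17.1. Similar transcripts (at least 95% identity over 150 bases) were found with blastn 2.17.0. Promoters are those of RefSeq, off chromosome 18. Sequences of Spry4 and Egr1 and proteins were not used here.

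The 10 genes and all lists were chosen with earlier results of these data known. Named are the 10 genes, the called gene with the highest and the lowest change of each list, Tnfsf11 and Pth1r. Also named are the 2 most similar profiles of each gene (mean of at least 1 CPM) and genes said to be chosen later. Some genes with similar or overlapping transcripts are named, as are the called markers of osteoblasts, adipocytes, macrophages and chondrocytes. Fos, Junb, Spi1 and Dusp8 were named with their values known. Alternatives were DESeq2, its size factors in edgeR, total counts without TMM, no filter, the replicate number as a block, each sample left out, counts summed by symbol, the 10 most abundant genes left out, a minimum absolute log2 fold change of 1, thinned counts, other added counts and another transcript length. Total counts per sample limit genes with few counts.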

Additional observations from a re-analysis of the deposited data

Results flagged for a closer look

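In 2 of 34 groups of 4 samples, 1 sample stood apart from the other 3 by more than Dixon's 95% limit, a rule that flags about 1 in 20 groups by chance. For Spry2 in the PTH group the gap divided by the range was 0.853, with replicate 2 at 42.1 CPM and the others between 33.1 and 34.4 CPM. For Spred1 in the PTH group it was 0.844, with replicate 1 at 82.1 CPM and the others between 63.5 and 66.4 CPM. PTH replicate 2 had the lowest total count of the 8 samples (33605610) and PTH replicate 1 the highest (56090654), and the part of depth in these values was not tested. The calls of both genes held without either sample, with log2 fold changes of 1.53 for Spry2 without replicate 2 and −0.53 for Spred1 without replicate 1.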

How the results depend on the processing

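The calls of the 10 genes were the same 5 higher and 3 lower in 15 of 17 alternatives. With total counts and no TMM, 4 were higher and 3 lower, Egr1 being lost, and the calls among all genes were 2889 higher and 5356 lower (35.04% higher, beside 3907 and 3762 or 50.9%). A minimum absolute log2 fold change of 1, a stricter rule by construction, left 2 higher and 0 lower of the 10 genes, 31 higher and 10 lower of the genes in the lists, and 1232 higher and 650 lower of all genes. Only Spred3 changed direction, with a log2 difference of −0.0027 without PTH replicate 2 (up to 0.41 with another sample left out). Samples with the same number did not deviate together (correlations between −0.041 and 0.027), and with the replicate block 3571 genes were higher and 3432 lower, again with 5 and 3 of the 10. For the 7 ratios, sign changes by number (replicate block) allow no p under 0.125. The block compares the same means, so it could not change their differences. These were 2.44 for Spry2 to Spry1, 1.40 for Spry4 to Spry1 and 1.04 for Spry2 to Spry4. They were 1.33 for Spred2 to Spred1, 0.66 for Spred3 to Spred1, 0.67 for Spred2 to Spred3 and −0.21 for Etv5 to Etv4. The differences kept their direction in every alternative that could change them, although 3 moved by over 1.5 times with 1 sample left out. Spred3 to Spred1 lay between 0.39 and 0.88, Spred2 to Spred3 between 0.45 and 1.02 and Etv5 to Etv4 between −0.42 and −0.090. With the longest transcript in place of merged exons, the median of the 10 genes in vehicle was 15.6 in place of 19.0 TPM, a shift that the other lengths bring by construction, and Spry2 and Spry1, Spry4 and Spred3 in vehicle, and Egr1 and Spred2 with PTH changed places in the order. Of the counts of called genes in single lists, 250 of 272 stayed within 1.5 times. The counts were lowest for Etv4, Spry3, Dusp2 and Spib, which held 32, 20, 4 and 0 counts in their lowest sample.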
